A study of Mus musculus with 6 samples.

Results

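Immunoglobulin heavy-chain variable (V) segments of the mouse were followed in bone marrow RNA after chronic stress. They were taken as every entry of the deposited tables whose gene name starts with Ighv, which gave 183 of 47561 entries. Bone marrow RNA was sequenced in 6 libraries, 3 labelled control (treatment given as negative control) and 3 labelled CUMS, from mice put through chronic unpredicted mild stress, a rodent procedure of changing mild stressors used as a model of depression, for 4 weeks. Strain, sex and age are not stated in the labels used here, and no label ties a library to its own animal, so all p-values below measure only the spread between these samples. The values are FPKM, fragments scaled by transcript length and by library depth, and no counts or depths came with them. The summed FPKM ran from 561563 to 658595 per library, and it was highest in replicate 1 of each group. Those 2 libraries carry one code in the file headers and the other 4 another. The meaning of that code is not stated. Marker lists of other cells were compared between the groups, which does not check the tissue label. None of 7 T cell, 4 natural killer cell, 4 erythroid and 5 neutrophil markers passed the limma test described below. At an unadjusted p under 0.05 there was 1 T cell marker (15.4% of all tested genes). Of 4 monocyte markers 2, Csf1r and Cx3cr1, passed the test towards lower in CUMS (0.455% of all tested genes). With 1 library left out 0 to 2 of the 4 passed, and 3, with Ccr2, when the replicate number was a block. Ccr2, Csf1r and Cx3cr1 each lay lower in CUMS without overlap, Cx3cr1 by the most (log2 change −1.10). The 4 summed to 767 to 992 FPKM in control and 769 to 864 in CUMS, of which Ly6c2, whose groups overlapped, made up most. The part of these cells in the Ighv values was not tested.

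A heavy-chain gene does not exist ready-made in the genome. In a developing B cell the RAG recombinase joins a D to a J segment and then a V segment to that pair, and the V exon so placed encodes most of the antigen-binding face of the antibody. V segments are sorted into families by sequence: families 2 and 5 lie nearest the D segments, families 1 and 8 fill the far side, and far segments are known to be brought to the D segments by contraction of the locus. In marrow, Ighv RNA comes from pro-B and pre-B cells, from B cells and, in very large amounts per cell, from plasma cells. Because bulk RNA was measured, fewer cells of a type and less RNA per cell cannot be told apart in any value below.

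By the RefSeq annotation of GRCm38 all 183 segments lay on chromosome 12, between 113572929 and 116009954, a stretch of 2437.0 kb. By GENCODE all 183 lay on the minus strand. RefSeq lists 120 of them as V segments and 63 as pseudogenes. Most models are as short as a V exon: they span 277 to 582 bp, and 137 span no more than 300 bp. GENCODE gives a V exon for all 183, and the segments resemble each other closely. Among the 88 segments high enough to be tested, identity of the V exon to the nearest other segment had a median of 95.4% and ran from 74.0% to 100%, and for 85 the nearest segment was of the same family. Of the 88, 51 were at least 95% identical to another segment. For 5 a run at least as long as a read (151 bases) was exactly shared: Ighv1-62-2 and Ighv1-71 have identical V exons, Ighv1-62-3 and Ighv1-72 share 220 bases, and Ighv11-2 shares 162 bases with Ighv11-1. How reads that match several segments were assigned is not given in the sources used here, so the split of signal between near-identical segments is uncertain.

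The V exons on which the results turn are printed 5′ to 3′ as transcribed, from GENCODE M21 transcripts on GRCm38 without the first 11 bases, which encode the end of the leader peptide, so that a reader can see what separates each from its closest relative. Capitals mark bases that differ from the nearest segment, or that it lacks, in a pairwise alignment. Bases that only the nearest segment has are not shown. Percent identity is over the whole V exon and counts gaps. The first set holds the 5 segments that passed the test, in order along the locus from the D side: Ighv5-17 at chr12:113859149-113859442 (compared with Ighv5-9-1, 90.9% identical), Ighv9-4 at chr12:114299961-114300254 (with Ighv9-3, 91.8%), Ighv1-4 at chr12:114487136-114487429 (with Ighv1-7, 97.7%), Ighv1-78 at chr12:115868773-115869066 (with Ighv1-85, 90.2%) and Ighv1-84 at chr12:115980702-115980995 (with Ighv1-75, 96.1%), all on the minus strand.
Ighv5-17: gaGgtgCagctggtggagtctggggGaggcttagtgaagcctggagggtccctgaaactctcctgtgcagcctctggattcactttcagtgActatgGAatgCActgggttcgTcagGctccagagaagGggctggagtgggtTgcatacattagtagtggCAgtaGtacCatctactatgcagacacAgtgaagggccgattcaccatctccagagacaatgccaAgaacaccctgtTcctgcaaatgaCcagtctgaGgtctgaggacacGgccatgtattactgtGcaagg
Ighv9-4: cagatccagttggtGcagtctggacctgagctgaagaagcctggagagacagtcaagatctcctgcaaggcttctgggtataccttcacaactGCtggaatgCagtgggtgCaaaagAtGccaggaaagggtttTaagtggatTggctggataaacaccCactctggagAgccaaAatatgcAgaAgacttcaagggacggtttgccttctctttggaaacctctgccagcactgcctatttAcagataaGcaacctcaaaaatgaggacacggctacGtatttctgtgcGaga
Ighv1-4: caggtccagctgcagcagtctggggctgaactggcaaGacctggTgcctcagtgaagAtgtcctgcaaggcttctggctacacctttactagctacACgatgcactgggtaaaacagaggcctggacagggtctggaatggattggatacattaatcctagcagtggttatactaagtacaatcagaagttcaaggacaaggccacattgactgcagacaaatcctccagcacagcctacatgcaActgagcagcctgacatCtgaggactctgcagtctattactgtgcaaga
Ighv1-78: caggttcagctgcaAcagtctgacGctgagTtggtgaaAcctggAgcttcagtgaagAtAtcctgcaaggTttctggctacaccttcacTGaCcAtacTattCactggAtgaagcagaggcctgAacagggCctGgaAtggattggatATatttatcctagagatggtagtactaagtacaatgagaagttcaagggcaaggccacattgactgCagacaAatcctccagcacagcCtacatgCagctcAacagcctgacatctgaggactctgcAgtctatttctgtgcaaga
Ighv1-84: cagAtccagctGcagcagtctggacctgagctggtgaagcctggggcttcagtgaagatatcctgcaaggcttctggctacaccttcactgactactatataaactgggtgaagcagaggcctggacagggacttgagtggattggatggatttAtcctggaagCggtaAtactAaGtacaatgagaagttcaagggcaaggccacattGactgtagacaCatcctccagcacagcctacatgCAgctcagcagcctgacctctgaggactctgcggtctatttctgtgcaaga
The second set holds Ighv1-61 at chr12:115359140-115359433, which had the largest decrease and differs from Ighv1-52 at 4 bases (98.7% identical), and Ighv11-2 at chr12:114048241-114048536, a segment known from B-1a cells, which differs from Ighv11-1 at 4 bases (98.7%). Both are on the minus strand.
Ighv1-61: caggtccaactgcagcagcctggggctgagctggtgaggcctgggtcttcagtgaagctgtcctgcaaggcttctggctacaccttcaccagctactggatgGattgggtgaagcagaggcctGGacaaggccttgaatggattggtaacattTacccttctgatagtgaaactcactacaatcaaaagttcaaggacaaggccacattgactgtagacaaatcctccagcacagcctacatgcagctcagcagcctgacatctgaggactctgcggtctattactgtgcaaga
Ighv11-2: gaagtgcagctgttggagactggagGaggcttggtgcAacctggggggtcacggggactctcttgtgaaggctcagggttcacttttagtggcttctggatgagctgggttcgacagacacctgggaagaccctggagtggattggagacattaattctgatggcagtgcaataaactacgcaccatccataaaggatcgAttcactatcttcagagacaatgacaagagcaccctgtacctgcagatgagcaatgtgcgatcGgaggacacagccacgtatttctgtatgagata
Ighv5-17, Ighv1-4 and Ighv1-61 end in a stretch holding tactgtg, the embedded heptamer known from V replacement. The letters TACTGTG on the transcribed strand were found in the last 30 bases of 71 of 120 annotated V segments (59.2%) and 25 of 63 pseudogenes (39.7%), against 0.16% of the longest protein-coding transcripts of 21746 other genes. That is a match of letters and no measured site.

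As a group, the segments were higher in CUMS marrow by a small amount. The summed FPKM of all 183 was 657, 571 and 555 in the control libraries and 748, 695 and 674 in the CUMS libraries, or 595 ± 54.7 against 706 ± 38.1 (SD, n = 3). Every CUMS library lay above every control library, and replicate 1 was the highest in each group. The log2 ratio of the group means was 0.25. As a share of all summed FPKM the segments took 0.0998%, 0.102% and 0.0958% in control and 0.115%, 0.115% and 0.114% in CUMS, again with no overlap. A sum over segments is given as a description, with no test.

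**Figure D1:**
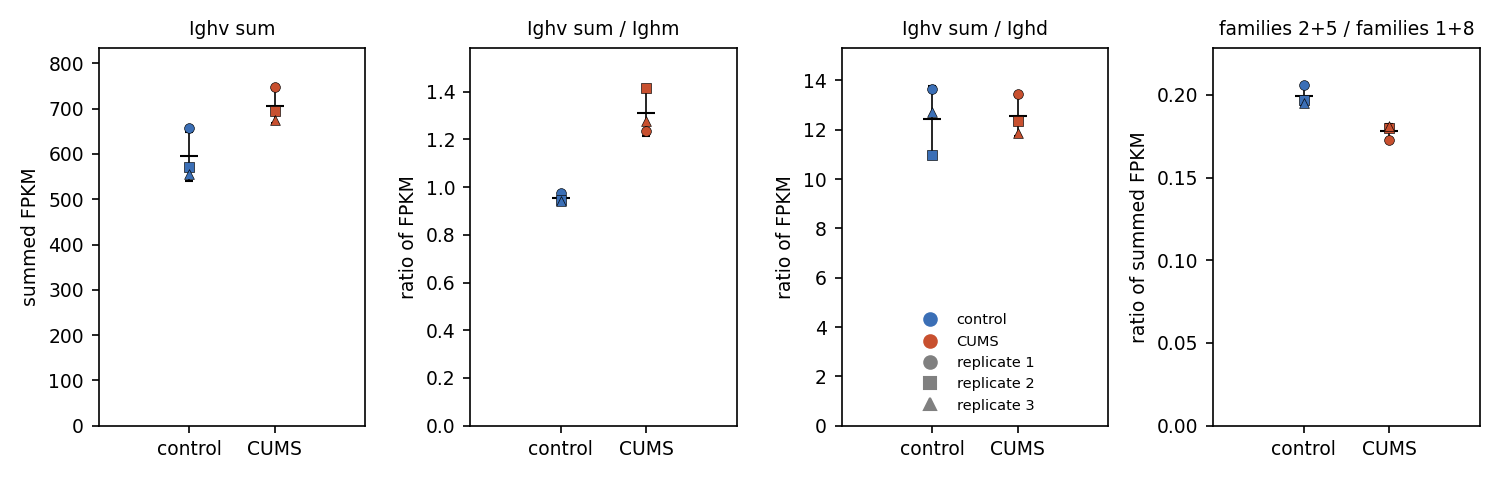
Summed FPKM of the 183 Ighv segments, its ratio to Ighm and to Ighd, and the ratio of summed FPKM of families 2 and 5 to families 1 and 8 (y axes from 0), in the 3 control and 3 CUMS libraries (points, shaped by replicate number), with mean and SD as bars. The CUMS libraries lie above the controls for the sum and the ratio to Ighm, overlap for the ratio to Ighd, and lie below for the family ratio.

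RNA was spread over many segments, and its evenness overlapped between the groups. The effective number of segments, the inverse Simpson index of their shares, was 50.8, 50.7 and 49.5 in control and 52.0, 50.3 and 48.6 in CUMS. The 10 highest segments together took 32.6% of the sum in control and 31.3% in CUMS (means of 3 libraries). No single segment dominated: Ighv1-26 was the highest in 5 libraries and Ighv1-55 in control replicate 1, and the highest segment took 4.83% to 6.00% of the sum. Segments above 0 numbered 117 to 120 in control and 113 to 118 in CUMS libraries, and those with at least 1 FPKM 85 to 88 and 86 to 89.

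Testing used log2(FPKM + 1) in limma for every gene that reached 1 FPKM in 3 or more libraries, with Benjamini-Hochberg adjustment over all 12302 tested genes and an adjusted p under 0.05 as the threshold. Of the 183 segments 88 passed this filter, 83 annotated V segments and 5 pseudogenes. Of the other 95, 46 were listed at 0 in all libraries (40 pseudogenes and 6 V segments) and 49 were above 0 somewhere, with no mean above 0.981 FPKM, the mean of Ighv1-67. Together these 95 took 2.34% of the sum in control and 1.81% in CUMS. A filter on level can fix a direction: Ighv1-84 passed only through its CUMS libraries and Ighv2-4 only through its control libraries.

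With limma, 5 of the 88 tested segments rose in CUMS at an adjusted p under 0.05, against 0.618% of all tested genes called higher, and 0 fell, against 0.455% called lower. Of the 5, Ighv1-84, could only be called higher, given the filter, and without it and Ighv2-4 there were 4 of 86 higher and 0 lower. At an unadjusted p under 0.05 there were 26 higher (7.02% of all genes) and 6 lower (8.41%). Groups did not overlap for 28 segments higher (10% of all genes) and 6 lower (12.1%). Towards higher lay 60 of the 88 and towards lower 28, and the median log2 change was 0.21, beside −0.0017 over all tested genes. Replicate 1, a single library per group, and replicates 2 and 3, which differ in header code, gave medians of 0.19 and 0.20. The sign was the same in both for 70 of the 88. The like share over all tested genes was not computed, so this count is not read as a result. Over all genes limma called 132 (1.07%), 76 higher and 56 lower, but 65 higher and 101 lower once each library was brought to an equal total. At an unadjusted p under 0.05 there were 15.4% of all genes in either direction.

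The count of segments called depended on the model and on single libraries. With the replicate number as a block in limma, 20 segments were higher (3.49% of all genes called higher) and 3 lower (4.31% called lower). With the header code as a term there were 19 higher (6.06%) and 2 lower (7.31%), and in the 4 libraries of the larger header code alone 24 higher (8.82%) and 1 lower (8.84%). Ighv5-17, Ighv9-4, Ighv1-4 and Ighv1-78 passed in all 3 of these models. Ighv1-84 is also counted as higher in each, but the filter had fixed its direction, so its passing is not given as support. Leaving out control replicate 1 gave 8 higher (1.3% of all genes called higher), and leaving out control replicate 2 gave 1, Ighv1-4 (0.154%). Leaving out control replicate 3 gave 0 (0.0732%), as did leaving out CUMS replicate 1 (0.374%), CUMS replicate 2 (0.0813%) or CUMS replicate 3 (0.0813%). With no filter on low values 0 of 137 segments passed with limma, against 0.130% of all genes. At an unadjusted p under 0.05 there were then 30 of the 137, against 9.87% of all genes. An exact permutation test of 1 segment with 3 against 3 libraries cannot go below 0.1.

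On log2(FPKM + 1) the largest change was in Ighv9-4, a family 9 segment 727 kb from Ighv5-1, the D-side end of the 2437.0 kb stretch. With a pseudocount of 0.1 it was 1.56, below the 2.02 of Ighv1-84. Its FPKM was 2.17, 1.97 and 1.53 in control and 7.97, 5.33 and 4.36 in CUMS. Even the lowest CUMS library lay far above the highest control, and the log2 change was 1.22 ± 0.198 (SE; limma adjusted p = 0.0343). Its closest relative Ighv9-3, among the highest segments, had overlapping groups: it measured 18.0 ± 4.63 in control and 19.2 ± 3.83 in CUMS, with a log2 change of 0.10 (limma adjusted p = 0.877).

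In family 1, a family of the far side, 3 of the 5 segments lie, and 44 of the 88 tested segments are of this family. For 1 of the 3 the filter had fixed the direction, as described below. The count is thus not read as a result of family or position. Ighv1-4, the family 1 segment among the 5 that lies nearest the D segments, had the smallest adjusted p: 3.23, 3.53 and 2.49 FPKM in control and 7.57, 6.62 and 7.37 in CUMS. The groups were far apart and each narrow, with a log2 change of 1.01 ± 0.129 (limma adjusted p = 0.0168). Ighv1-7, which differs from it at 7 bases, measured 4.75 ± 2.32 in control and 7.06 ± 2.35 in CUMS, with overlapping groups and a log2 change of 0.52 (limma adjusted p = 0.481, 0.0246 with the replicate block).

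Ighv1-78 and Ighv1-84 lie near the far end. Ighv1-78 measured 4.99, 3.30 and 4.71 FPKM in control and 9.31, 8.31 and 8.20 in CUMS, with every CUMS library above every control (log2 change 0.86 ± 0.145, limma adjusted p = 0.0393). Ighv1-84 measured 0.377, 0.584 and 0.854 in control and 2.46, 3.46 and 2.17 in CUMS, a log2 change of 1.20 ± 0.175 (SE). Every control library of Ighv1-84 was under 1 FPKM. It was tested only because its CUMS libraries were above that level, which fixed its direction, so its p is not given as support, and log2(FPKM + 1) understates its ratio. Ighv1-75, 96.1% identical to it, lay the other way, at 11.3 ± 3.25 in control and 7.99 ± 1.72 in CUMS with overlapping groups (−0.43, limma adjusted p = 0.421).

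Ighv1-76 and Ighv1-77, the neighbours of Ighv1-78, had changes of like size without passing the test. Ighv1-76 measured 4.92, 6.80 and 10.04 FPKM in control and 15.2, 15.1 and 15.5 in CUMS. The CUMS libraries were nearly equal and the control libraries were not (log2 change 1.03, limma adjusted p = 0.0710, 0.0162 with the replicate block). Ighv1-77 measured 2.70, 2.68 and 1.94 in control and 6.47, 6.05 and 3.88 in CUMS, also without overlap (limma adjusted p = 0.0742, 0.00535 with the block).

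Ighv5-17 was the segment of the D-side families that passed. It measured 8.95, 9.22 and 8.38 FPKM in control and 13.1, 13.8 and 13.3 in CUMS, with the groups well apart (log2 change 0.55 ± 0.0893, limma adjusted p = 0.0350). Leaving out 1 library, the limma adjusted p ran from 0.0411 to 0.195 for Ighv5-17, from 0.0433 to 0.167 for Ighv9-4, from 0.0263 to 0.0949 for Ighv1-4 and from 0.0353 to 0.179 for Ighv1-78. Together the 5 held 4.35% of the Ighv sum.

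**Figure D2:**
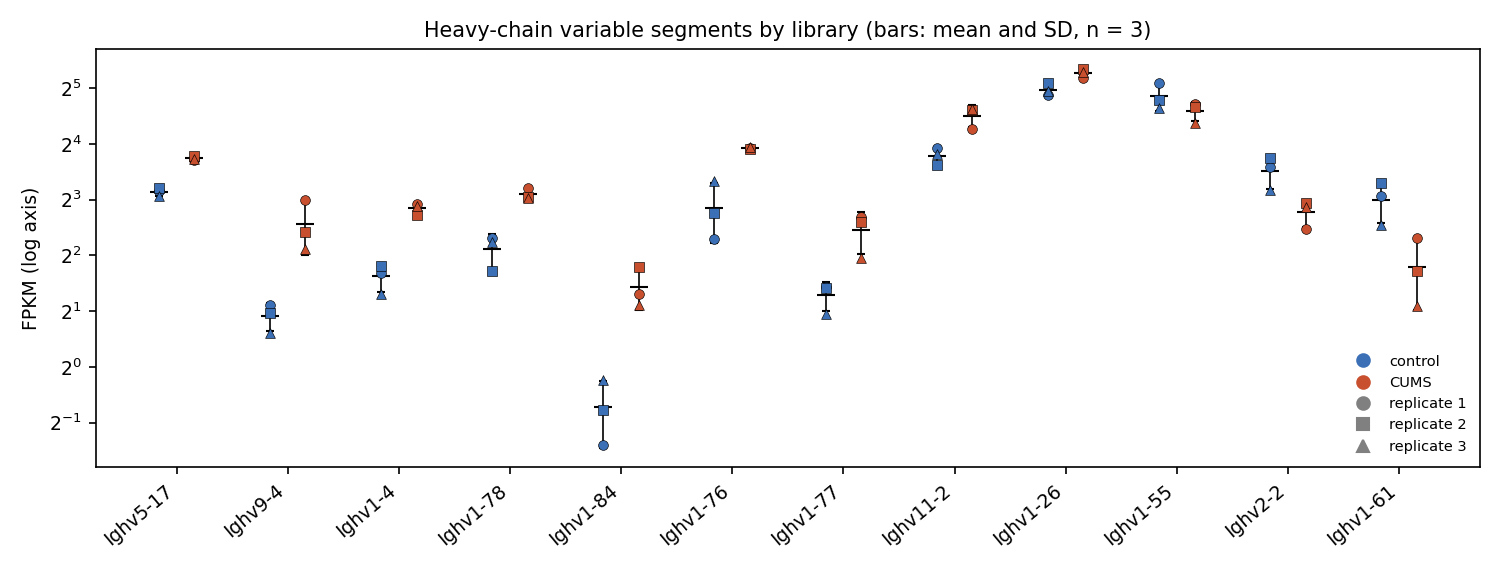
FPKM (log axis) of 12 Ighv segments in each control and CUMS library (points, shaped by replicate number), with mean and SD (n = 3). The 5 segments at the left passed the test and do not overlap between groups, Ighv1-55 overlaps, and Ighv2-2 and Ighv1-61 lie lower in CUMS.

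No segment fell by the test. Ighv1-61 had the largest decrease: 8.35, 9.84 and 5.87 FPKM in control and 4.99, 3.29 and 2.14 in CUMS. The groups did not overlap, each was wide, and the log2 change of −1.03 ± 0.256 had a limma adjusted p of 0.115 (0.0109 with the replicate block). Ighv1-52, with 4 bases between them, was towards higher, at 7.34 ± 1.01 in control and 9.50 ± 1.23 in CUMS (0.33, limma adjusted p = 0.301).

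Ighv2-2, close to the D segments, measured 12.0, 13.5 and 8.99 FPKM in control and 5.57, 7.68 and 7.27 in CUMS, without overlap (−0.66, limma adjusted p = 0.122, 0.0346 with the block). The next largest decreases were in Ighv5-9 (log2 change −0.53, limma adjusted p = 0.271), Ighv5-4 (−0.46, 0.306), Ighv2-4 (−0.44, 0.279) and Ighv13-2 (−0.43, 0.251). Of these Ighv13-2 passed with the block (limma adjusted p = 0.0489). Ighv5-2, also called VH81X and known as the segment most used in early pro-B cells, measured 2.01, 3.51 and 2.67 in control and 1.61, 2.08 and 2.54 in CUMS, with overlap (−0.27, limma adjusted p = 0.545).

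Ighv5-6, on the D side, and Ighv14-3 were singled out after their values were seen. Ighv5-6 measured 8.06 ± 1.63 FPKM in control and 15.1 ± 2.46 in CUMS. Ighv14-3 measured 6.70, 4.15 and 6.80 in control and 14.4, 8.97 and 10.9 in CUMS. Neither segment's groups overlapped. The limma adjusted p was 0.0632 and 0.117, and 0.00353 and 0.00742 with the replicate block.

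Of the 8 most abundant segments none passed the test. Ighv1-26, the highest on average, measured 29.3, 34.3 and 30.9 FPKM in control and 36.1, 40.7 and 39.4 in CUMS, without overlap but close (log2 change 0.29, limma adjusted p = 0.217, 0.0484 with the block). Ighv1-55 measured 34.2, 27.6 and 24.9 in control and 26.2, 25.4 and 20.8 in CUMS, with overlap (−0.24, limma adjusted p = 0.470). Both lie in family 1.

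Ighv7-1, a pseudogene by RefSeq but a V gene by GENCODE, was among the 8 highest: 24.9, 17.9 and 25.1 FPKM in control and 29.8, 23.8 and 33.1 in CUMS (0.34, limma adjusted p = 0.384, 0.0365 with the block). It carried most of what the RefSeq pseudogenes gave: their sum was 39.9 ± 2.44 in control and 48.3 ± 8.23 in CUMS, and 17.3 ± 2.47 and 19.4 ± 3.50 without it. Ighv8-8 measured 15.1 ± 1.58 and 20.6 ± 1.52 without overlap (limma adjusted p = 0.126, 0.0227 with the header code as a term and 0.0283 in the 4 libraries of code 2). Ighv6-3 measured 17.8 ± 3.32 and 15.5 ± 0.687 (limma adjusted p = 0.586), and Ighv1-53 15.7 ± 3.63 and 17.1 ± 5.09 (0.888).

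Some segments are known for particular B cells. Ighv11-2 and Ighv12-3 encode antibodies to phosphatidylcholine in B-1a cells, a self-renewing B cell type of the body cavities. Ighv11-2 measured 15.2, 12.3 and 14.1 FPKM in control and 19.2, 24.5 and 24.6 in CUMS, with no overlap (log2 change 0.68, limma adjusted p = 0.0630, 0.0247 with the block). Its near-identical relative Ighv11-1 was low in both groups, at 0.497 ± 0.0433 and 0.534 ± 0.359.

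Ighv12-3 was low: 1.09, 0.936 and 1.34 in control and 1.65, 1.22 and 1.05 in CUMS, with overlap (0.12, limma adjusted p = 0.772). Ighv1-72, known from responses to nitrophenyl haptens, measured 10.3 ± 3.18 and 13.4 ± 1.06 (limma adjusted p = 0.394, 0.0147 in the 4 libraries of code 2), and Ighv14-2 7.70 ± 1.98 and 9.39 ± 1.43 (0.554).

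Family 1, with 92 members of which 44 were tested, took 55.3% of the sum in control and 55.9% in CUMS. Its tested members lay 32 towards higher and 12 towards lower, with a median log2 change of 0.29, and of the 28 segments with non-overlapping higher groups 19 were of family 1. Family 2, on the D side, took less: 4.65%, 5.23% and 4.86% of the sum in control and 3.30%, 3.83% and 3.73% in CUMS, with no overlap.

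The share of family 14 was higher in every CUMS library than in any control, at 3.58% ± 0.548 of the sum in control and 4.57% ± 0.353 in CUMS, and all 4 of its members lay towards higher. Family 11, nearly all Ighv11-2, went from 2.41% to 3.32%. Shares without overlap also lay lower in families 4, 6, 10 and 13. Families 3, 5, 7, 8, 9, 12 and 15 overlapped, as did family 1, and family 16 was listed at 0. These shares sum to 100% in each library, so they are not independent, and no test was made on them.

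**Figure D3:**
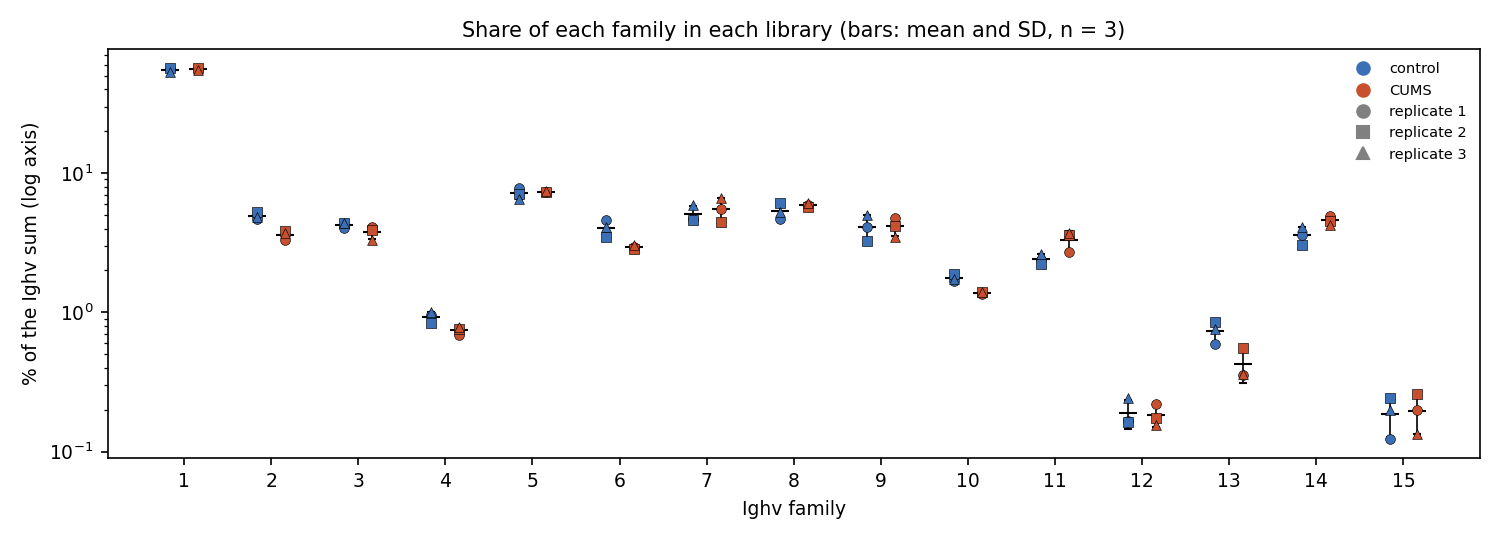
Percent of the Ighv sum (log axis) taken by each of 15 Ighv families in every control and CUMS library (points, shaped by replicate number), with mean and SD (n = 3). Family 1 holds over 50% in all libraries, family 2 is lower and family 14 higher in CUMS without overlap.

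Position along the locus went with the changes only loosely. Families 2 and 5 on the D side had 16 tested segments, 8 towards higher and 8 towards lower, with a median of 0.01. Families 1 and 8 on the far side had 49, of which 35 lay towards higher and 14 towards lower, with a median of 0.28. The other families had 23, 17 towards higher and 6 towards lower, with a median of 0.12. The ratio of the summed FPKM of families 2 and 5 to that of families 1 and 8 was 0.206, 0.197 and 0.195 in control and 0.173, 0.180 and 0.181 in CUMS, and did not overlap. The D-side families did not move together. The sum of family 2, which holds Ighv2-2, was lower in CUMS (ratio of group means 0.875). That of family 5 was higher (1.21, with overlapping groups), much as in family 1 (1.20). The part of position in the ratio of families 2 and 5 to families 1 and 8 was not tested. Across the 88 segments, which share libraries and sequence, Spearman's rho between log2 change and distance from the D side was 0.275, and it was 0.171 within family 1. This is a description across segments, which are not independent replicates.

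**Figure D4:**
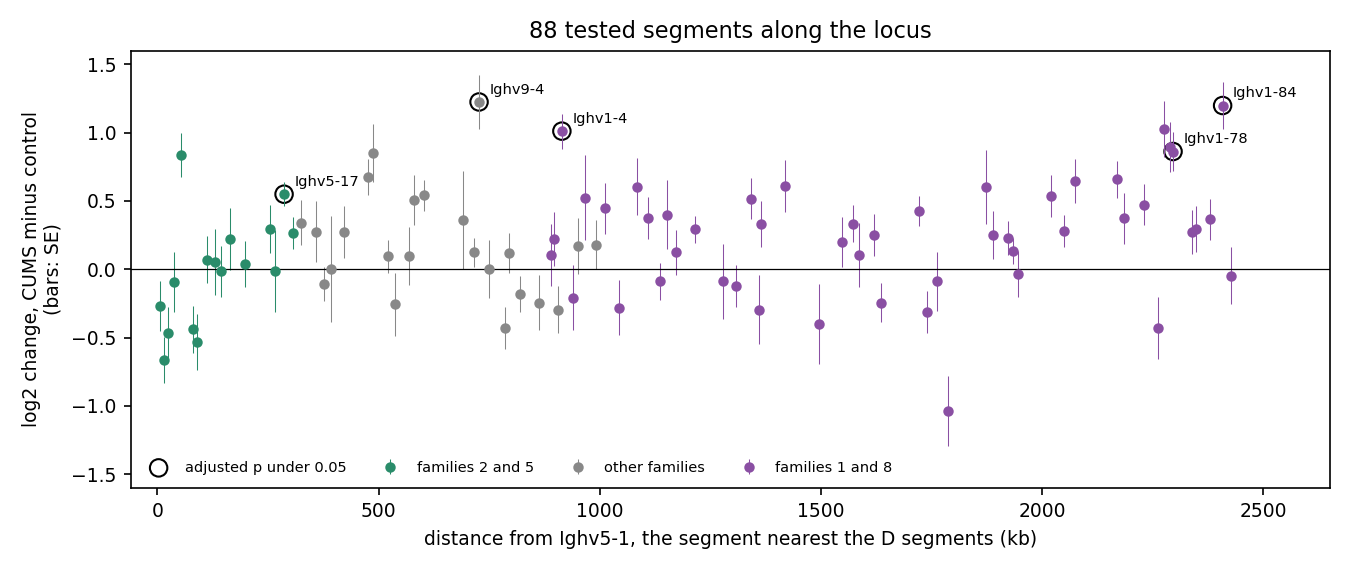
Log2 change (CUMS minus control on log2(FPKM + 1), with SE) of the 88 tested segments against distance from Ighv5-1, the segment nearest the D segments, in kb. Circles mark the 5 segments that passed the test, and the points of families 2 and 5 scatter around 0 while more of families 1 and 8 lie above it.

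The other genes of heavy-chain expression were read from lists of constant genes, recombination genes, B cell genes and plasma cell genes. Of 8 tested heavy-chain constant and J chain genes 3 rose with limma (0.618% of all genes) and 0 fell (0.455%), with a median log2 change of 0.49. All 3 encode IgG constant regions: Ighg3 measured 2.55, 2.24 and 2.56 FPKM in control and 10.8, 6.35 and 7.15 in CUMS (1.37, limma adjusted p = 0.0179). Ighg1 went from 11.3, 11.4 and 9.77 to 31.4, 20.5 and 24.4 (1.14, limma adjusted p = 0.0196), and Ighg2c from 16.7, 9.79 and 10.6 to 36.4, 27.9 and 27.1 (1.26, limma adjusted p = 0.0343). In none of the 3 did the groups overlap. Leaving out control replicate 2, control replicate 3 or CUMS replicate 3, 0 of the 8 passed, 1 passed without CUMS replicate 2 and 2 without CUMS replicate 1. Without a filter on low values 0 passed.

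Ighm, the constant gene of IgM, was by far the highest and went the other way in its mean, 622 ± 45.9 in control and 542 ± 58.7 in CUMS (−0.20, limma adjusted p = 0.481, 0.0380 in the 4 libraries of code 2). The Ighv sum per unit of Ighm was thus 0.974, 0.947 and 0.943 in control and 1.24, 1.42 and 1.28 in CUMS, with no overlap, whereas per unit of Ighd, the IgD constant gene, it was 13.6, 10.97 and 12.7 against 13.4, 12.4 and 11.9, with overlap. Igha (0.13, limma adjusted p = 0.825), Ighd (0.23, 0.305), Ighg2b (0.50, 0.279) and Jchain, which links IgM and IgA chains (0.48, 0.177, and 0.0383 with the block), did not pass. Ighd and Jchain lay higher in CUMS without overlap, and Igha and Ighg2b overlapped. Ighg2b passed with the header code as a term (limma adjusted p = 0.0292) and in the 4 libraries of code 2 (0.0409). The 4 IgG genes summed to 61.2, 49.1 and 41.5 FPKM in control and 121, 84.5 and 93.2 in CUMS.

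Genes of the cells that make heavy chains lay mostly towards lower. Of 14 recombination and pro-B or pre-B cell genes 0 passed with limma. At an unadjusted p under 0.05 there were 1 higher (7.02% of all genes) and 7 lower (8.41%). Towards lower lay 10, and the median log2 change was −0.32. The 14 summed to 226 to 249 FPKM in control and 190 to 204 in CUMS. Rag2, the partner of the recombinase Rag1, measured 2.21 ± 0.124 in control and 1.21 ± 0.0435 in CUMS (limma adjusted p = 0.0725, 0.0246 with the block). Dntt, which adds bases at the joints, had a change of −0.48 (limma adjusted p = 0.151, 0.0226 with the block), and Rag1 had a limma adjusted p of 0.350, or 0.0276 with the block. Il7r, the receptor of early B cells for interleukin 7, was the 1 higher at an unadjusted p under 0.05 (log2 change 0.42, limma adjusted p = 0.154, 0.0247 with the block).

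Of 15 B cell identity genes 0 passed with limma, with 1 higher (7.02% of all genes) and 4 lower (8.41%) at an unadjusted p under 0.05. Towards lower lay 10 of the 15, with a median of −0.18. They summed to 795 to 873 FPKM in control and 686 to 747 in CUMS. Pou2af1, a co-activator of immunoglobulin transcription, measured 45.5 ± 1.91 in control and 35.6 ± 1.63 in CUMS (limma adjusted p = 0.117, 0.0285 with the block). Blnk, an adaptor of B cell receptor signalling, had a change of −0.34 (limma adjusted p = 0.161, 0.0336 with the block), and Bank1, a scaffold of the same receptor, one of 0.39 (limma adjusted p = 0.140, 0.0486 with the block). Of 13 tested plasma cell genes 0 passed with limma, with 0 higher (7.02% of all genes) and 2 lower (8.41%) at an unadjusted p under 0.05. Towards lower lay 11, with a median of −0.11. All 15 plasma cell genes on the list summed to 308 to 380 FPKM in control and 303 to 349 in CUMS, with Prdm1 and Tnfrsf17, defining genes of plasma cells, under 1 FPKM throughout. Slamf7, a surface protein of plasma cells and other lymphocytes, had the smallest p of the list, with a change of −0.52 (limma adjusted p = 0.119), and it was the 1 that passed with the block (0.0247). Sdc1, the plasma cell marker CD138, had −0.29 (limma adjusted p = 0.297), and Xbp1, a factor of antibody secretion, −0.22 (0.500). Xbp1 passed with the header code as a term (limma adjusted p = 0.0414) and in the 4 libraries of code 2 (0.0401). With the replicate block the recombination, B cell and plasma cell lists had 1 higher and 4 lower, 1 higher and 4 lower, and 0 higher and 1 lower. Of all genes 3.49% were then called higher and 4.31% lower. The part of cell numbers in the Ighv values was not tested.

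**Figure D5:**
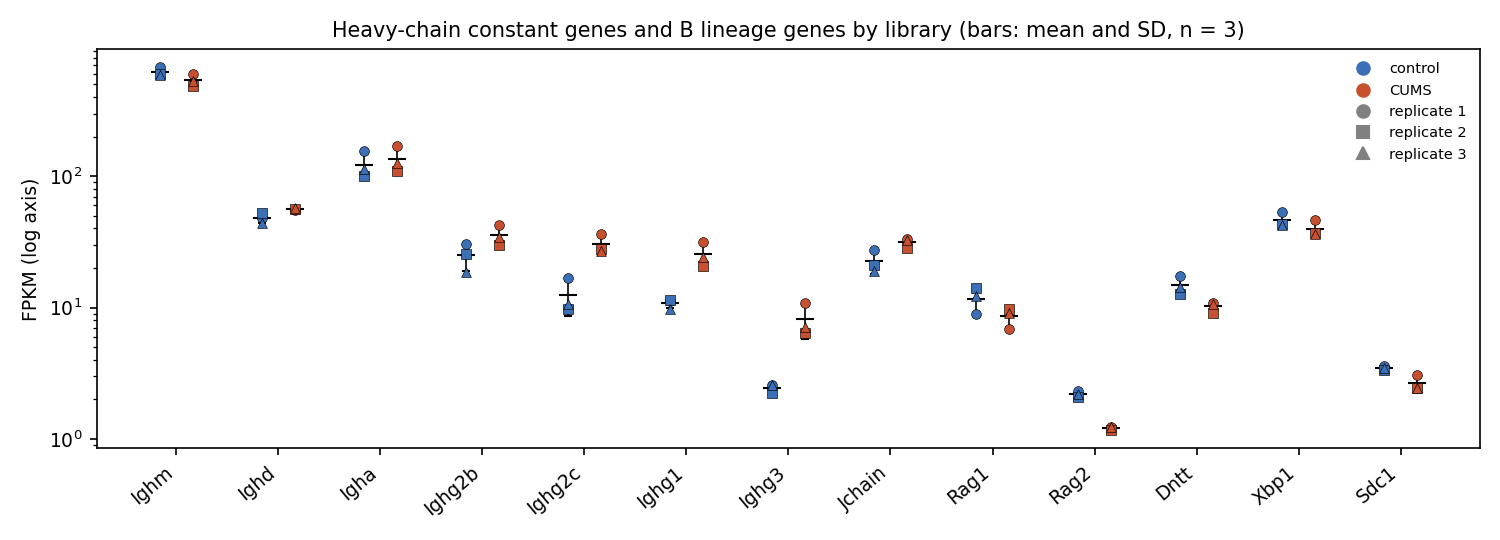
FPKM (log axis) of heavy-chain constant genes, Jchain, recombination genes, Xbp1 and Sdc1 in each control and CUMS library (points, shaped by replicate number), with mean and SD (n = 3). Ighg1, Ighg2c, Ighg3, Ighd and Jchain lie higher in CUMS without overlap, and Rag2, Dntt and Sdc1 lie lower without overlap.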

How the data were processed

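Bone marrow RNA of 6 libraries, 3 control and 3 CUMS, was extracted with TRIZOL, made into TruSeq libraries and sequenced with paired reads of 151 bases, per the labels' protocols. The deposited values are FPKM per gene. No label names the unit, so it was taken from the values (not whole, library sums of 561563 to 658595). Tools listed in the submitters' processing notes are HISAT2 2.1, featureCounts 1.6.4, DESeq2 2.11.40.6, bcl2fastq 2.19 and cutadapt 1.16.5, with build mm10. Which of them made the values, the strand setting and the handling of multiply matching reads are not given in the sources used here. FPKM divides by model length, so levels of short V segments depend on the models used. Depth is unknown, so precision rests on the spread between 3 libraries.

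All 12302 genes that reached 1 FPKM in 3 or more libraries were fitted on log2(FPKM + 1) by limma 3.58.1 with trend (R 4.3.3) and group as the only term, with Benjamini-Hochberg adjustment. The fit was tested on simulated data. Sums, shares, identities (edlib 1.3.9.post1) and plots (matplotlib 3.10.9) used Python 3.11.15, numpy 2.4.6 and pandas 2.3.3. Alternatives were pseudocount 0.1, a filter at 0.3 FPKM or none, scaling to the same total, quantile normalization, no trend, the replicate block, the header code as a term, the 4 libraries of code 2, and leaving out each library. Each library's deviation from its group mean was compared across groups. Libraries of like number correlated by 0.689, 0.452 and 0.363, and crossing replicates 2 and 3 gave 0.459 and 0.362. Replicates 2 and 3 were thus as alike crossed as with the same number, and only replicate 1 stood apart. No source names pairs, and the main fit has no block. The replicate block is an alternative fit, and its values stand beside calls that it changes. Replicate 1 of both groups also shares the header code.

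Named segments were every one called, the 8 of highest mean, the 6 largest changes each way, and Ighv5-2, Ighv11-2, Ighv12-3, Ighv1-72 and Ighv14-2. From the other lists up to 4 genes of smallest p and a fixed set were eligible, 1 of which is not reported here. The members and lists were chosen with earlier results of these data known. Coordinates and types come from RefSeq (GRCm38.p6), V exons from GENCODE M21.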

Additional observations from a re-analysis of the deposited data

How the results depend on the processing

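The log2 ratio of the Ighv sum stayed between 0.20 and 0.33 under all alternatives run, and of the 25 segments taken by the naming rule only Ighv9-3 and Ighv1-53 changed sign. Leaving out 1 library, the change of Ighv9-3 ran from −0.12 to 0.23 and that of Ighv1-53 from −0.077 to 0.34. Ighv9-3 was −0.12 without control replicate 2 and −0.04 without CUMS replicate 1, and Ighv1-53 −0.077 without CUMS replicate 1.

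Of 12302 genes 959 passed with the replicate block, 1645 with the header code as a term, 2173 in the 4 libraries of code 2 and 199 after quantile normalization. With no filter 36 passed, and 17 to 262 with 1 library left out. Ighv segments called higher numbered 20, 19 and 24 with the block, the code term and the 4 libraries, 0 with no filter, and 0 to 8 with 1 library left out. Those called lower numbered 3, 2 and 1 in the first 3 of these fits. The block changed no other call of an Ighv segment whose test the report gives. The median log2 change of the segments was 0.096 with no filter and 0.12 with a filter at 0.3 FPKM, where more low segments entered. Ighv1-78 was lost with that filter and after quantile normalization, and Ighv5-17 after scaling to the same total, where Ighv5-6 was gained.

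Precision is limited by 3 libraries a group and an unknown depth. Segments near 1 FPKM and near-identical segments are the least certain.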

Other observations

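Light-chain variable segments, which pair with the heavy chain, did not all lie the same way. The sum of kappa variable segments was 730, 620 and 628 FPKM in control and 895, 905 and 815 in CUMS, without overlap. Of 84 tested kappa segments 6 were higher with limma (0.618% of all genes) and 1 lower (0.455%), with a median log2 change of 0.30. With the replicate block 27 were higher (3.49% of all genes) and 4 lower (4.31%). With 1 library left out 1 to 12 were higher and 0 to 2 lower, against 9 to 160 and 7 to 102 of all 12302 genes. The sum of lambda variable segments was 138, 132 and 124 in control and 94.3, 96.5 and 100 in CUMS, lower without overlap. Of the 3 lambda segments 0 passed with limma, and 2 were lower at an unadjusted p under 0.05 (8.41% of all genes). With the replicate block 2 passed towards lower (4.31%). Of the heavy-chain D and J segments 6 of 24 were tested and 0 passed with limma, none at an unadjusted p under 0.05. The sum of J segments was 261, 267 and 262 in control and 276, 279 and 290 in CUMS.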
